A study of Mus musculus with 34 samples.

Results

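The bone morphogenetic protein (BMP) genes described here are 10 of the 22040 protein-coding genes in a table of limb bud RNA levels. They were chosen by name for their place in the pathway, with earlier results of these data known. They are the 5 ligands *Bmp2*, *Bmp4*, *Bmp5*, *Bmp7* and *Gdf5*, the 3 receptors *Bmpr1a*, *Bmpr1b* and *Bmpr2*, and the 2 secreted antagonists *Grem1* and *Nog*. Limb buds were taken from mouse embryos at E11.5 (embryonic day) and profiled by RNA-seq in 3 WT and 3 CKO libraries. The WT libraries are labelled Hnrnpk WT, with no further allele or strain given in the labels. The CKO embryos were Prrx1-Cre; Hnrnpk fl/fl, in which Cre removes exons 4 to 7 of *Hnrnpk*, the gene for a nucleic acid binding protein with a preference for runs of cytosines. Prrx1-Cre acts in limb bud mesenchyme and in the calvarium, does not act in the apical ectodermal ridge (AER), and is incomplete in the hindlimb. RNA came from limb bud cells with no sorting described, so each value pools recombined mesenchyme with ectoderm, blood and other cells, and fewer cells of a type cannot be told apart from less RNA per cell. Whether a library holds 1 embryo or several is not given in the sources used here, and the p-values measure the spread between these libraries.

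BMP ligands are secreted dimers that bring type I receptors (BMPR1A and BMPR1B) together with type II receptors such as BMPR2, after which SMAD1, SMAD5 and SMAD9 are phosphorylated and enter the nucleus with SMAD4. Gremlin 1 and Noggin bind the ligands outside the cell and keep them from the receptors. In the limb bud this pathway is known for restraining the AER, for interdigital cell death, for the condensation of cartilage and for the joints, and *Grem1* in the mesenchyme holds BMP activity down so that the loop between *Shh* and the *Fgf* genes of the ridge can go on. The comparison asks whether the RNA of these genes differed between CKO and WT limb buds.

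Reads on the listed genes, recovered from the deposited levels and exon lengths, numbered between 17140869 and 24624434 per library. These sums are approximate, since they were 1.11 and 1.03 times the library size behind the levels in CKO 2 and CKO 3. *Hnrnpk*, the deleted gene, was measured at 193, 195 and 185 FPKM (fragments per kilobase of exon scaled to the depth of the library) in the WT libraries and at 127, 142 and 135 FPKM in the CKO libraries. The highest CKO value was thus under the lowest WT value, and the log2 difference was -0.50 (SE 0.13, limma adjusted p = 0.334, and 0.0575 with the replicate number as a block). This level is over the whole gene, including exons outside the deleted stretch, and over all cells of the bud. It is therefore no measure of how complete the deletion was, which the study reports as efficient by western blot and qPCR. The limb mesenchyme genes *Prrx1* (51.6 to 62.0 FPKM) and *Twist1* (83.0 to 114 FPKM) were present in every library, as was *Tbx4* of the hindlimb (24.6 to 27.6 FPKM in WT and 22.5 to 31.3 FPKM in CKO). *Tbx5* of the forelimb was measured at 20.3, 19.1 and 19.2 FPKM in WT and at 15.3, 7.30 and 9.58 FPKM in CKO, with no overlap (log2 difference -0.93, limma adjusted p = 0.358, and 0.0073 with the block), and its part in the BMP values was not tested. The libraries numbered 1 stood apart from those numbered 2 and 3 in both genotypes. Over the 12305 genes tested, deviations from the group mean correlated at 0.64 between WT 1 and CKO 1, and at -0.60 to -0.37 between a library numbered 1 and those numbered 2 or 3 of the other genotype. Deviations cancel out within a genotype, so negative values follow on balance from the positive one and are no separate evidence. What the numbers stand for is not given in the labels. Globin RNA took 11.7% of all FPKM in CKO 1 and 32.4% in CKO 2, with the other libraries between.

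None of the 10 BMP genes passed the test between CKO and WT. The test was limma on log2(FPKM + 0.1) over genes with a mean of at least 0.5 FPKM, with Benjamini-Hochberg adjustment over all 12305 of them and a call at an adjusted p under 0.05. All 10 BMP genes were above the filter. No member was called, against 0.0650% of all tested genes (0.0569% higher and 0.00813% lower in CKO), and none had an unadjusted p under 0.05, against 8.31% of all genes. None passed the study's thresholds of a fold over 2 or under 0.5 with an unadjusted p under 0.05, against 0.666% of all genes. The p here is that of limma. The study names no test for its RNA-seq list and reports more genes at these thresholds, so 0.666% is not its own rate. No member had CKO values that all lay on one side of the WT values, against 14.5% of all genes (5.63% with every CKO value higher and 8.86% with every CKO value lower). Two-sided exact permutation tests of the single genes gave p between 0.2 and 0.7 with 3 libraries against 3, where the smallest p possible is 0.1. The members' log2 differences had a median of 0.07 (all genes: 0.0048) and a median absolute size of 0.15 (all genes: 0.14).

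**Figure D1:**
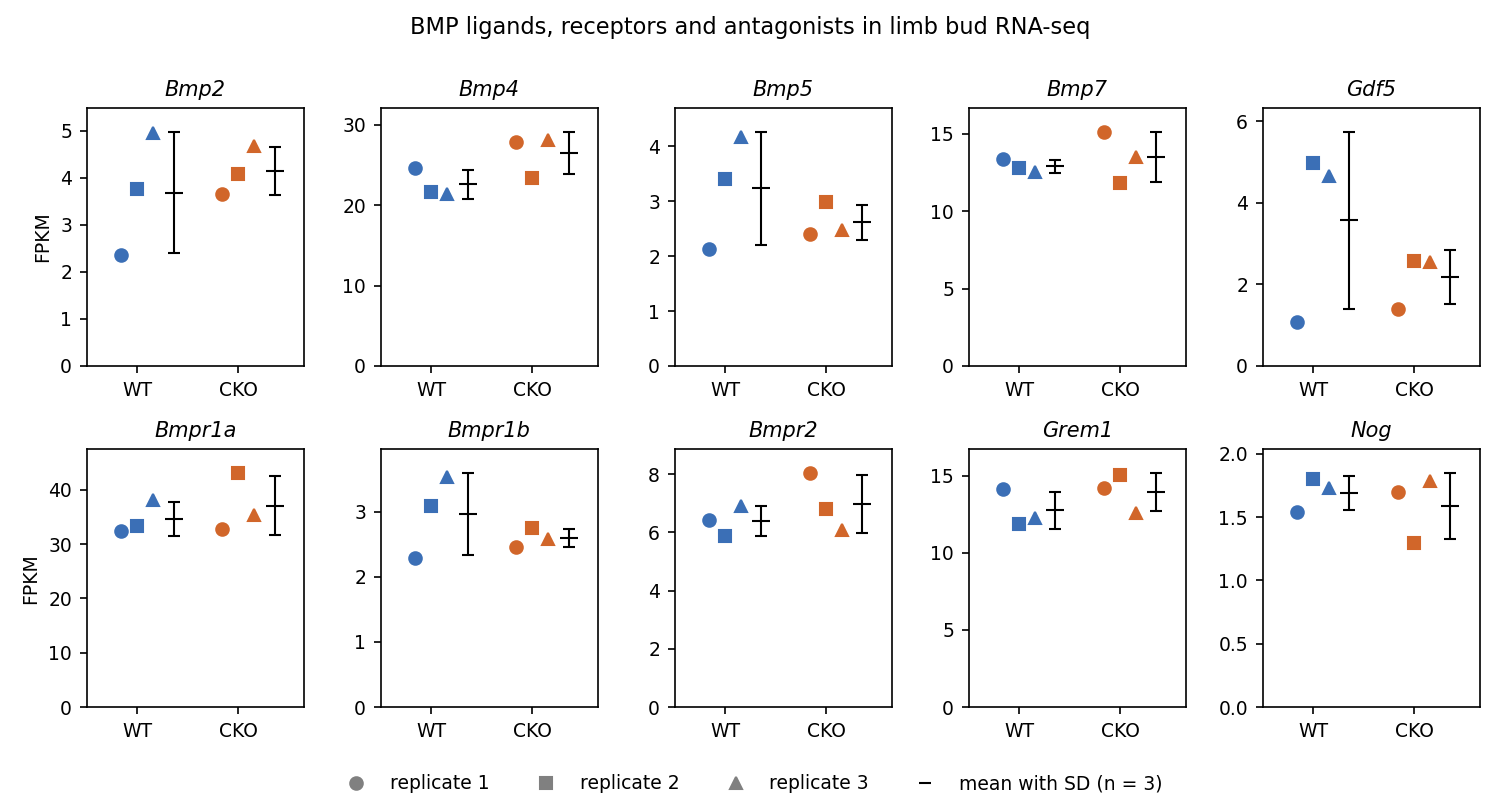
FPKM of each BMP gene in the 3 WT (blue) and 3 CKO (orange) libraries, with the mean and SD of each group (n = 3) beside the points and each vertical axis starting at 0. The shape of a point gives the replicate number, and in none of the 10 panels do all CKO points lie to one side of all WT points.

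Among the ligands, *Bmp4* was the most abundant. *Bmp4* encodes a ligand made in the limb mesenchyme and ridge (chr14:46383520-46390669, minus strand, GRCm38). It was measured at 24.7, 21.6 and 21.5 FPKM in WT and at 27.9, 23.4 and 28.2 FPKM in CKO, which is 22.6 ± 1.82 against 26.5 ± 2.65 FPKM (mean ± SD, n = 3 each). Only CKO 2 fell within the WT range, and within each replicate number the CKO library was the higher. The log2 difference was 0.23 (95% interval -0.07 to 0.52, limma adjusted p = 0.703). *Bmp7*, whose product can pair with BMP2 or BMP4, lies at chr2:172868012-172940321 on the minus strand. Its levels were 13.4, 12.8 and 12.6 FPKM in WT and 15.1, 11.9 and 13.5 FPKM in CKO. CKO 2 was the lowest and CKO 1 the highest of the 6 libraries, so the WT values sat inside the CKO range, and the log2 difference was 0.06 (-0.23 to 0.35, limma adjusted p = 0.932).

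*Bmp2* (chr2:133552159-133562885, plus strand), a close relative of *Bmp4* that acts later in bone formation as well, was measured at 2.36, 3.76 and 4.94 FPKM in WT and at 3.65, 4.08 and 4.67 FPKM in CKO. The CKO values all lay inside the WT range, and WT 1 was the lowest library. The log2 difference was 0.22 (-0.38 to 0.81, limma adjusted p = 0.874). *Bmp5*, a ligand of early skeletal condensations (chr9:75775364-75900310, plus strand), was measured at 2.14, 3.40 and 4.17 FPKM in WT and at 2.40, 2.98 and 2.47 FPKM in CKO. The highest values were those of WT 2 and WT 3 and the lowest was that of WT 1, and the log2 difference was -0.25 (-0.81 to 0.31, limma adjusted p = 0.853). Of its 4025 exon bases, 1878 are shared with the antisense gene *Gm26903*, and *Bmp4* shares 89 of 2248 with *Gm15217* on the opposite strand, so without a stated strand setting their levels are uncertain to that extent.

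*Gdf5*, a BMP family ligand that marks future joints and promotes cartilage condensation, had the largest difference of the 10 genes and the widest spread. It lies at chr2:155941023-155945367 on the minus strand. The level was 1.08, 4.99 and 4.66 FPKM in WT and 1.41, 2.57 and 2.55 FPKM in CKO (3.58 ± 2.17 against 2.17 ± 0.665 FPKM, mean ± SD, n = 3 each). Within WT the highest library held 4.64 times the lowest. WT 1 and CKO 1 were the 2 lowest libraries, and WT 2 and WT 3 were both above every CKO library. The log2 difference was -0.47 with a 95% interval from -1.75 to 0.80 (limma adjusted p = 0.869). On the fold scale this interval ran from 0.297 to 1.74. It was the only one among the 10 genes that reached beyond a 2-fold change, while the intervals of the other 9 lay within one, as did those of 89.4% of all tested genes. The *Gdf5* values rested on 45, 277 and 236 reads in WT and 59, 114 and 141 reads in CKO, and counting error at 45 reads is 14.9%, far under the 60.7% coefficient of variation among the WT libraries. Of the 2320 exon bases of *Gdf5*, 936 are shared with *Gm15557*, a gene on the opposite strand, and whether the counting used strand is not given in the sources used here. The levels of *Gm15557* were 0.804, 3.57 and 3.29 FPKM in WT and 1.001, 1.51 and 1.64 FPKM in CKO, and reads of the shared stretch cannot be told apart without strand.

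None of the 3 receptors passed the test. *Bmpr1a* (chr14:34410734-34503341, minus strand), a type I receptor, was the most abundant of the 10 genes, at 32.4, 33.4 and 38.2 FPKM in WT and 32.8, 43.1 and 35.3 FPKM in CKO. CKO 2 was the highest library, and the other CKO values lay inside the WT range. The log2 difference was 0.09 (-0.24 to 0.42, limma adjusted p = 0.908), and 290 of its 6351 exon bases are shared with the antisense gene *Gm17110*. *Bmpr2* (chr1:59763400-59879014, plus strand), the type II receptor, was measured at 6.42, 5.86 and 6.91 FPKM in WT and 8.05, 6.82 and 6.09 FPKM in CKO. CKO 1 stood above the WT range and the other CKO libraries inside it, with a log2 difference of 0.12 (-0.21 to 0.45, limma adjusted p = 0.874). *Bmpr1b* (chr3:141837136-142169425, minus strand), the type I receptor of condensing cartilage and the main one for GDF5, was measured at 2.29, 3.09 and 3.53 FPKM in WT and 2.47, 2.75 and 2.57 FPKM in CKO. All 3 CKO values lay inside the WT range, and as with *Bmp5* and *Gdf5* the lowest library was WT 1. Its log2 difference was -0.17 (-0.58 to 0.25, limma adjusted p = 0.865).

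Of the antagonists, *Grem1* was at the level of *Bmp7* and *Nog* was the scarcest of the 10 genes. *Grem1* (chr2:113746164-113758646, minus strand) was measured at 14.1, 11.9 and 12.3 FPKM in WT and at 14.2, 15.0 and 12.6 FPKM in CKO. CKO 3 lay within the WT range, CKO 1 just above it and CKO 2 highest. The CKO library was the higher within each replicate number, although by only 0.01 on the log2 scale in number 1 and 0.04 in number 3, against 0.34 in number 2. The overall log2 difference was 0.13 (-0.16 to 0.42, limma adjusted p = 0.855). *Bmp4* and *Grem1* were the only members that differed in one direction within all 3 numbers, 2 of 10, where 39.5% of all tested genes did so. *Nog*, a gene of a single exon (chr11:89300638-89302332, minus strand), was measured at 1.54, 1.80 and 1.73 FPKM in WT and 1.69, 1.29 and 1.78 FPKM in CKO. The lowest library was CKO 2, and the other CKO values lay inside the WT range. The log2 difference was -0.09 (-0.50 to 0.31, limma adjusted p = 0.922), from 42 to 73 reads per library, with a counting error of 15.4% at 42 reads.

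**Figure D2:**
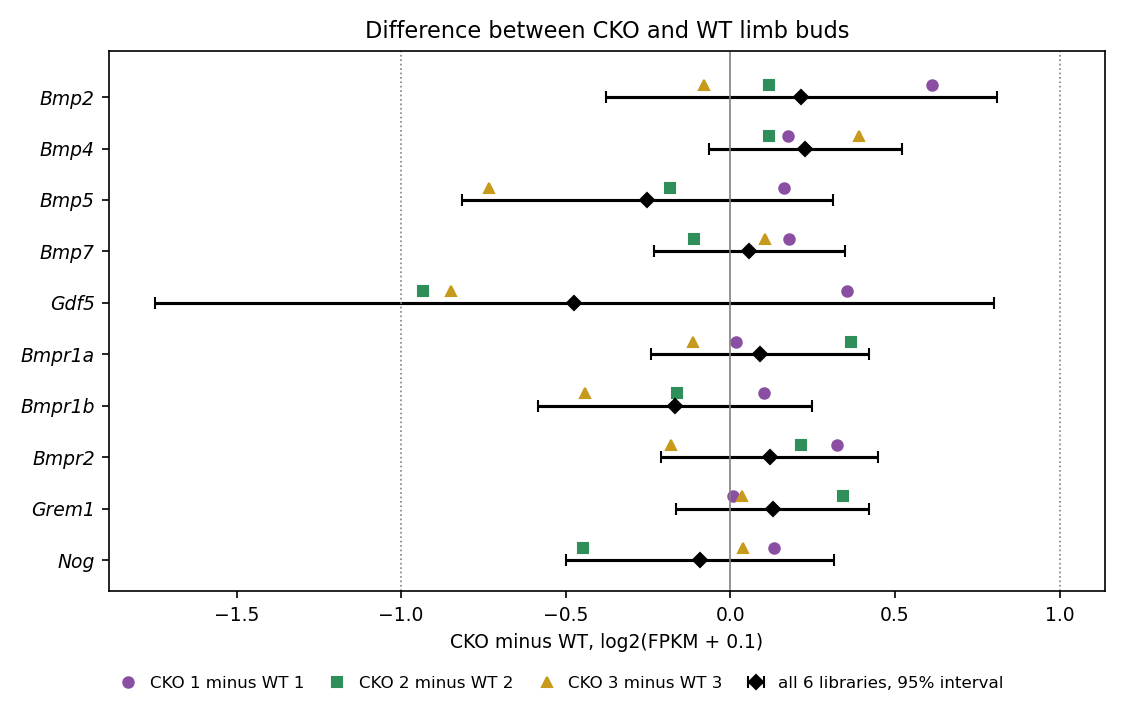
Log2 difference in log2(FPKM + 0.1) between CKO and WT for each BMP gene, with the 95% interval from limma over all 6 libraries and the difference within each replicate number as separate points (circle, square and triangle for numbers 1, 2 and 3), and dotted lines mark a 2-fold change. All 10 intervals cross 0, and that of *Gdf5*, from -1.75 to 0.80, is the widest.

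Because hnRNPK binds C-rich nucleic acid, the 250 bases before the start of transcription were searched in RefSeq promoters (GRCm38.p6) for CCCTCCC and for CCCCC on both strands, the second also being part of longer runs. Of the 10 members, 6 had an entry, with 8 start sites, and *Bmp2*, *Bmp7*, *Gdf5* and *Nog* had none. CCCTCCC stood before 4 of these 8 start sites and in 19.7% of all 32851 promoters, and CCCCC before 3 of 8 and in 47.2% of all promoters. The 2 windows shown are those of *Grem1* (chr2:113758649-113758898, minus strand, 72% G or C) and *Bmp5* (chr9:75775115-75775364, plus strand, 42.8% G or C), picked after the search as members with 3 runs of at least 5 C or G and with none. Capitals mark those runs.
Grem1: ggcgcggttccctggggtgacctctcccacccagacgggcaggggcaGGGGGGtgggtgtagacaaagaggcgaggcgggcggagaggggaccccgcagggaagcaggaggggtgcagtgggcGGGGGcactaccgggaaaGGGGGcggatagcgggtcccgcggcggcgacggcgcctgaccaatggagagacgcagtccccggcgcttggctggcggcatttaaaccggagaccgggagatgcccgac
Bmp5: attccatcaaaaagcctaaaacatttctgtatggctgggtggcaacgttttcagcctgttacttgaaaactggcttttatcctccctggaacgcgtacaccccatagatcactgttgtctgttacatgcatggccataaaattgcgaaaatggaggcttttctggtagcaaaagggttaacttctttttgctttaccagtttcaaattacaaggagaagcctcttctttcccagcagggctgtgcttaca
A match describes the letters in the window only, and the RNA of *Grem1* and *Bmp5* did not pass the test between CKO and WT.

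FPKM are scaled by length, so genes can be set side by side, within limits. The length counts all annotated exons of a gene, 17983 bases for *Bmpr2* and 6351 for *Bmpr1a*. Exon bases not used in the limb bud would lower a level, and bases shared with opposite-strand genes could raise it. Neither was tested. Mean levels over the 6 libraries ran from 35.9 FPKM for *Bmpr1a* and 24.5 FPKM for *Bmp4* through 13.4 FPKM for *Grem1* and 13.2 FPKM for *Bmp7*, 6.69 FPKM for *Bmpr2* and 3.91 FPKM for *Bmp2*, to 1.64 FPKM for *Nog*. *Grem1* and *Bmp7* were not separated, since *Grem1* was the higher in 2 of 6 libraries. *Bmp5*, *Gdf5* and *Bmpr1b*, with means of 2.93, 2.87 and 2.78 FPKM, overlapped as well. *Bmp4* and *Bmp7* together made up 87.2%, 73.9% and 71.2% of the summed ligand FPKM in the WT libraries and 85.2%, 78.6% and 81.1% in the CKO libraries. *Bmpr1a* made up 75.7% to 81.8% of the summed receptor FPKM over all 6 libraries. The summed antagonist FPKM was 0.359, 0.293 and 0.293 times the summed ligand FPKM in WT and 0.315, 0.364 and 0.280 times in CKO, so the groups overlapped in this ratio too. The ratio of *Grem1* to *Bmp4* ran from 0.447 to 0.642, with the lowest and the highest value both among the CKO libraries.

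Several of the 10 genes differed between the libraries numbered 1 and the others. In WT, libraries 2 and 3 were higher than library 1 by 2.07 on the log2 scale for *Gdf5*, by 0.84 for *Bmp2*, by 0.79 for *Bmp5* and by 0.51 for *Bmpr1b*. In CKO the corresponding differences were 0.82, 0.25, 0.17 and 0.11, smaller in each case. For 8 of the 10 members this contrast in WT was larger than the difference between CKO and WT, as it was for 65.1% of all tested genes. A contrast of 1 library with 2 varies more than one of 3 with 3, so the first tends to be the larger even where neither number nor genotype has an effect. In 9 of 10 the number contrast had the same sign in WT and CKO (74.7% of all genes). Marker lists for the tissues of the bud varied too. The summed level of 10 cartilage condensation genes, led by *Col2a1*, was 101.5 FPKM in WT 1, 163.9 and 162.4 FPKM in WT 2 and 3, and 98.8 to 110.5 FPKM in CKO, with 8 of the 10 genes above the filter and none at 0. All 8 were lower in CKO and none was called, with a median log2 difference of -0.38, while with the replicate number as a block *Col11a2* was called (log2 difference -1.18, limma adjusted p = 0.0172). The summed level of 12 ectoderm and ridge genes, all above the filter, was 52.3 to 83.3 FPKM in WT and 58.3 to 85.6 FPKM in CKO. The sum was lowest in the library numbered 1 of each genotype, as were *Krt5* and *Krt14*, but the genes of the list did not all go that way. *Fgf8* of the ridge was measured at 10.6, 6.87 and 6.89 FPKM in WT and at 10.5, 7.31 and 9.10 FPKM in CKO. By other assays, in situ hybridization and qPCR, the study reports less *Fgf8* RNA in CKO limb buds of this stage. Like *Fgf8*, *Sp6* and *Sp8* were highest in the library numbered 1 of each genotype. The part of these tissues in the BMP values was not tested.

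**Figure D3:**
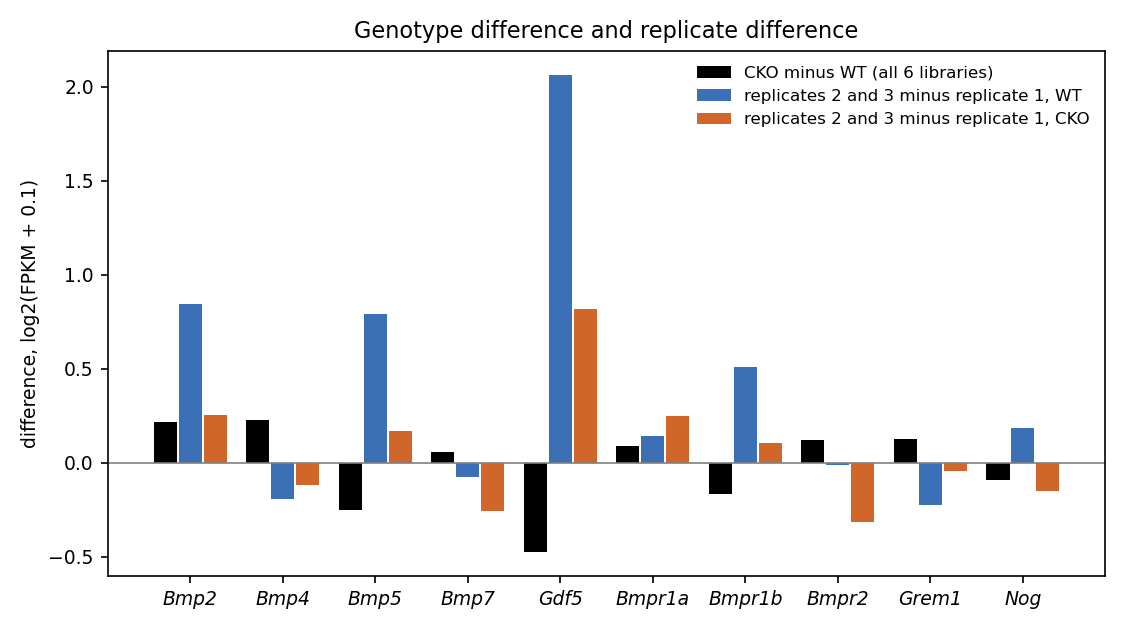
Bars give, for each BMP gene, the log2 difference of libraries 2 and 3 (mean) minus library 1 in WT and in CKO, beside the CKO minus WT difference. Bars are single contrasts without error, since 1 library stands on one side of each number contrast. The WT bar of *Gdf5* reaches 2.07, against -0.47 for its genotype difference.

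When the replicate number was a block in the model, still no member was called, against 2.81% of all tested genes. One member, *Gdf5*, had an unadjusted limma p under 0.05 there, at 0.0462 (limma adjusted p = 0.261), against 18.4% of all genes. In limma voom on reads recovered from the FPKM no member was called either, against 0.0816% of all genes, nor with the block added, against 5.04% of all genes, where *Gdf5* had a log2 difference of -0.67 (limma voom adjusted p = 0.0702). When the libraries numbered 1 were left out, 2 of 10 members were called, both lower in CKO, against 15.0% of all genes. *Gdf5* was lower in CKO by 0.89 on the log2 scale (SE 0.14, limma adjusted p = 4.2e-05), at 4.99 and 4.66 FPKM in WT and 2.57 and 2.55 FPKM in CKO. *Bmp5* was lower by 0.46 (SE 0.15, limma adjusted p = 0.0387), at 3.40 and 4.17 FPKM in WT and 2.98 and 2.47 FPKM in CKO. These calls rest on 2 libraries against 2, and 2 of 10 members is close to the share of all genes called there. Over all 6 libraries neither gene was called (limma adjusted p = 0.869 for *Gdf5* and 0.853 for *Bmp5*). Within number 1 the CKO library was the higher, by 0.36 for *Gdf5* and 0.16 for *Bmp5*. The opposite-strand gene *Gm15557* was called lower with *Gdf5* in the libraries numbered 2 and 3 (log2 difference -1.07, limma adjusted p = 1.3e-05). *Bmp4* (0.25, limma adjusted p = 0.189) and *Bmpr1b* (-0.30, limma adjusted p = 0.180) came next.

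The change of the genotype difference between number 1 and numbers 2 and 3 was fitted directly, as an interaction added after the values had been seen. For *Gdf5* the difference in number 1 exceeded that in numbers 2 and 3 by 1.25 on the log2 scale (95% interval 0.70 to 1.79). With the call at an adjusted p under 0.05, 1.70% of all genes were called. It was 0.62 for *Bmp5* (limma adjusted p = 0.333) and 0.59 for *Bmp2* (limma adjusted p = 0.329), neither of which was called. For *Gdf5* the fit restates the pattern that prompted it and is given as a description, and it holds a single WT and a single CKO library in number 1 and assumes that they vary as the others do.

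Among the 3 genes with the largest differences, likeness to other genes was taken as the root mean square difference between mean-centred log2 profiles over the 6 libraries. The profile nearest to that of *Gdf5* was that of *Six2*, a homeobox gene of connective tissue and kidney progenitors, at 0.0455. *Six2* was measured at 2.33, 10.4 and 9.93 FPKM in WT and at 2.97, 5.60 and 5.84 FPKM in CKO, low in both libraries numbered 1 and highest in WT 2 and WT 3. Next came *Gm15557* at 0.113, which shares exon bases with *Gdf5*, and *Otor* at 0.137. For *Bmp5* the nearest were *Adamts15* (0.0801), *Nap1l3* (0.0895) and *Foxp2* (0.0922), and for *Bmp4* they were *Sec23ip* (0.0338), *Hpcal1* (0.0380) and *Ddx19a* (0.0387).

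The rest of the pathway was followed in 50 further ligand, receptor, modulator and SMAD genes and 8 response genes, of which 33 and 8 were above the filter. None of these 41 was called, and 12 were higher and 29 lower in CKO, where 6264 of all tested genes were higher and 6041 lower. Their median log2 difference was -0.07 (all genes: 0.0048). Of the other ligands 3 of 11 were above the filter, led by *Bmp8b* (mean 3.02 FPKM in WT and 3.70 FPKM in CKO, log2 difference 0.28) and *Gdf10* (-0.17), and none had a mean near that of *Bmp4* or *Bmp7*. All 10 further receptors and co-receptors were above the filter with a median log2 difference of -0.05, led by *Neo1*, a receptor for the RGM co-receptors (mean 21.5 FPKM in WT and 20.5 FPKM in CKO, log2 difference -0.07), and *Acvr2b*, a type II receptor shared with the activins (9.01 and 10.2 FPKM, 0.18). The 7 SMAD and SMURF genes above the filter had a median of -0.0026. *Smad5*, a receptor-regulated SMAD, was measured at 31.2 ± 3.08 FPKM in WT and 31.3 ± 0.889 FPKM in CKO, and *Smad4*, their common partner, at 29.6 ± 2.43 and 32.1 ± 2.52 FPKM (SD, n = 3 each).

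The extracellular antagonists and modulators had more lower than higher values in CKO, with none called. Of the 21 beside *Grem1* and *Nog*, 13 were above the filter, 2 higher and 11 lower in CKO, with a median log2 difference of -0.16. Of all tested genes 6264 were higher and 6041 lower. Tissue lists leaned as well: limb mesenchyme genes with 1 higher and 9 lower, cartilage genes with 0 and 8, ectoderm and ridge genes with 10 and 2, and muscle precursor genes with 6 and 0. The most abundant were *Fstl1*, a follistatin-like secreted protein (52.6 ± 9.43 FPKM in WT and 50.6 ± 5.22 FPKM in CKO, log2 difference -0.04), and *Twsg1*, a partner of chordin (31.4 ± 2.43 and 28.9 ± 0.879 FPKM, -0.11). Without the libraries numbered 1, 10 of the 41 pathway and response genes were called, all 10 lower in CKO, where 984 of the 12305 tested genes were called lower and 867 higher. Among them were the modulators *Nbl1* (-1.26, limma adjusted p = 1.7e-08), *Bmper* (-1.06, adjusted p = 0.000862), *Chrdl1* (-0.61, adjusted p = 0.0026), *Chrd* (-0.79, adjusted p = 0.0388) and *Bmp1* (-0.58, adjusted p = 0.0016), named here after their values were seen. The other 5 were *Id4*, *Atoh8* (-0.67, adjusted p = 0.00044), *Rgma* (-0.47, adjusted p = 0.0140), *Smad6* (-0.42, adjusted p = 0.0288) and *Gdf10* (-0.58, adjusted p = 0.0315). *Chrd*, *Chrdl1* and *Bmper* encode proteins with chordin-type repeats that bind BMPs, and *Bmp1* encodes a protease that cuts chordin. *Nbl1*, a secreted antagonist of the DAN family, was like *Gdf5* high in WT 2 and WT 3 alone, with 4.61, 17.4 and 16.7 FPKM in WT and 5.65, 6.37 and 7.84 FPKM in CKO. Of these antagonists, *Chrd* alone had groups that did not overlap over all 6 libraries. The gap was small, from a lowest WT value of 0.580 FPKM to a highest CKO value of 0.564 FPKM. *Chrd* and *Bmper* had means of 0.620 and 0.785 FPKM over the 6 libraries, not far above the filter at 0.5 FPKM.

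The response genes are transcribed on SMAD signalling in many tissues, and 8 of 8 were above the filter. Of these, 2 were higher and 6 lower in CKO (all tested genes: 6264 and 6041), with a median log2 difference of -0.16. *Id1*, an inhibitor of basic helix-loop-helix factors, was by far the most abundant, at 227 ± 30.4 FPKM in WT and 187 ± 3.40 FPKM in CKO (SD, n = 3 each, log2 difference -0.27, limma adjusted p = 0.710). *Id3*, of the same family, was next, at 82.7 ± 5.23 and 79.9 ± 6.75 FPKM (-0.05). *Id4* was the pathway gene called with the replicate number as a block. It was measured at 3.96, 3.73 and 4.44 FPKM in WT and at 3.36, 1.76 and 1.87 FPKM in CKO, with every CKO library below every WT library. The log2 difference was -0.83, with a limma adjusted p of 0.409 without the block and 0.0278 with it (SE 0.18). By replicate number the *Id4* difference was -0.23, -1.04 and -1.20, again smallest in number 1. The 3 other genes of the 41 whose groups did not overlap, *Chrd*, *Smad6* and *Id1*, were likewise lower in CKO, which makes 4 of 41, against 14.5% of all tested genes (8.86% lower).

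**Figure D4:**
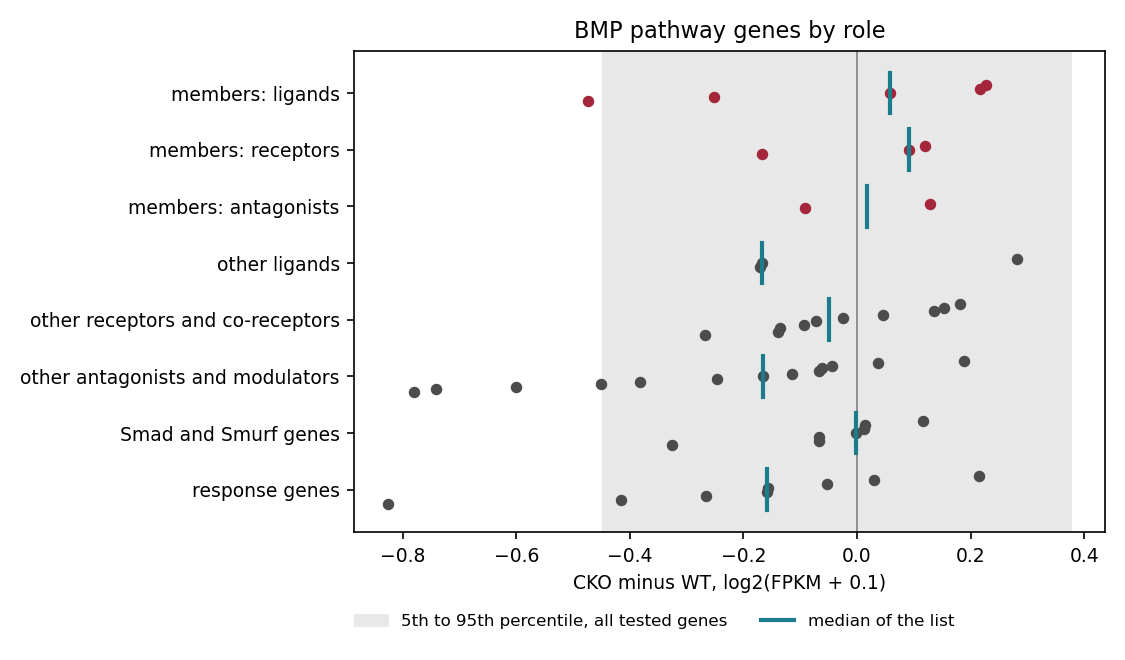
Log2 difference between CKO and WT for each tested gene of the BMP pathway, by role, with the 10 members and the further pathway and response genes in red and dark grey, the median of each role as a bar and the 5th to 95th percentile of all tested genes (-0.45 to 0.38) shaded. The antagonists and modulators (2 higher, 11 lower) and the response genes (2 higher, 6 lower) lie mostly below 0, while none passed the limma test over all 6 libraries. Of all tested genes, 6264 were higher and 6041 lower.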

How the data were processed

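Per the labels, limb bud RNA was sequenced from 3 WT and 3 CKO libraries. FPKM per gene were deposited by the authors in 1 table. The kit was a stranded mRNA kit. The submitters' processing notes list cutadapt 2.5, HISAT2 2.1.0, Bowtie2 2.11.1, featureCounts 1.6.3, MACS2 2.1.2 and mm10, without roles. ATAC-seq, CUT&RUN-seq and Hi-C samples were not analysed here. The aligner and counter behind the FPKM are not given in the sources used here.

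Genes with a mean of at least 0.5 FPKM (12305) were fitted with limma 3.58.1 (R 4.3.3, trend) on log2(FPKM + 0.1), so differences of low genes are understated, with Benjamini-Hochberg adjustment over all of them. Reads were recovered from FPKM and GENCODE vM21 exon lengths (99.5% of genes matched). Counts came out whole, within 0.1 reads in all 6 libraries, for 92.6% of genes and for all 10 members, and voom was run on those reads. Same-numbered WT and CKO libraries deviated together (r = 0.64, 0.44 and 0.27 over genes), each over 0.1. The numbers were therefore treated as pairs, from the data and not from the labels. WT 2 correlated more with CKO 3 (0.49) than with CKO 2, and WT 3 more with CKO 2 (0.31) than with CKO 3. The correlations thus set number 1 apart but do not single out the pairs numbered 2 and 3, which limits the results with the block. Permutation tests used scipy 1.17.1. The fit was tested on simulated data. Alternatives were other pseudocounts, filters and scalings, the block, voom, and leaving out libraries. Counting errors cover counting only.

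The members and lists were chosen with earlier results of these data known. Named genes were all members, pathway genes called with or without the block, the 2 most abundant genes of each role, and the 3 profiles nearest to the 3 members with the largest differences. Genes named beyond this rule, such as *Chrd*, *Bmp1*, *Smad6*, *Atoh8*, *Rgma* and marker genes, were chosen after their values were seen. A listed gene is not reported here.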

Additional observations from a re-analysis of the deposited data

How the results depend on the processing

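Over the 17 alternative settings, *Bmp4*, *Bmp5*, *Gdf5*, *Bmpr1b*, *Bmpr2* and *Grem1* kept their direction. Leaving out single libraries moved *Gdf5* between -1.16 (without WT replicate 1) and -0.11, and *Bmp5* between -0.52 and -0.05. Leaving out single libraries also moved *Bmp2* between -0.065 (without WT replicate 1) and 0.45, *Bmp7* between -0.027 (without CKO replicate 1) and 0.15, *Bmpr1a* between -0.023 (without CKO replicate 2) and 0.17, and *Nog* between -0.18 and 0.041 (without CKO replicate 2), each reversed without the library named. With replicates 2 and 3 alone *Bmp7* reversed to -0.0022. The cause was not tested. Without single libraries, members past the fold and unadjusted p thresholds numbered 0 to 1, the 1 being *Gdf5* without WT replicate 1, pathway and response genes called 0 to 1 (*Id4* without CKO replicate 1, adjusted p = 0.0491), and all genes called 1 to 23, against 8 with all libraries. All genes called numbered 13 after quantile normalization, 346 with the replicate block, 556 with voom on recovered reads and the block, and 1851 with replicates 2 and 3 alone. With the pairing as a replicate block, 1 pathway gene was called, and 4 under voom with the block (*Nbl1*, *Bmper*, *Chrdl1* and *Id4*), against 0. Leaving out both libraries numbered 1, a change of samples, called 10. Members called numbered 2 with replicates 2 and 3 alone and 0 in every other setting run, the replicate block included, in which *Gdf5* had an adjusted p of 0.261 and, under voom with the block, 0.0702. With 42 to 73 reads per library for *Nog* and 45 to 277 for *Gdf5*, depth limits these genes most, and for *Gdf5* the spread between libraries limits more than depth.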

Other observations

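The *Shh* pathway, which *Grem1* links to the ridge, was also measured, and none of the genes given here passed the limma test over all 6 libraries. The log2 differences between CKO and WT were 0.03 for *Shh*, 0.07 for *Ptch1*, -0.23 for *Gli1*, -0.29 for *Gli2*, -0.13 for *Gli3* and 0.19 for *Hhip*. By other assays, in situ hybridization and qPCR, the study reports less *Shh* RNA in CKO limb buds of this stage. The reason for the unlike results was not tested.

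Other lists used as tissue context are given as sums of FPKM over their genes. Limb mesenchyme genes summed to 391 to 412 FPKM in WT and 336 to 385 FPKM in CKO. Muscle precursor genes summed to 18.5 to 32.9 FPKM in WT and 31.0 to 39.1 FPKM in CKO, endothelial genes to 21.5 to 30.9 and 15.2 to 24.4 FPKM, macrophage genes to 24.6 to 29.2 and 24.5 to 34.8 FPKM, and neural and Schwann cell genes to 6.13 to 9.67 and 6.93 to 8.28 FPKM. Red blood cell genes ran from 30999 FPKM in CKO 1 to 143320 FPKM in CKO 2. No gene of these lists passed the limma test over all 6 libraries without the replicate block, and with it *Tbx5* of the mesenchyme list was called lower in CKO (log2 difference -0.93, limma adjusted p = 0.0073).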
